A study of Homo sapiens with 4 samples.

Results

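The genes described here are 10 components of the N6-methyladenosine (m6A) machinery. They are the methyltransferase METTL3, its partner METTL14, the adaptor subunits WTAP, VIRMA, RBM15, RBM15B and ZC3H13, the separate methyltransferase METTL16, the demethylase FTO and the nuclear reader YTHDC1. They were chosen by gene symbol, and measured values played no part in the rule, though earlier results of these data were known. All 10 had a probe set named for them, 1 each, among 14884 genes with a named probe set, and all 10 were among the 12755 genes tested. Expression was profiled on Affymetrix arrays in MDA-MB-231Br, a human breast cancer cell line derived from MDA-MB-231. The sample titles give the name of the parent line. There were 4 arrays. In 2 of them the cells carried a lentiviral control short hairpin RNA (shControl), and in the other 2 a hairpin against YTHDF3 (shYTHDF3), a cytoplasmic protein that binds m6A. Both groups had been transduced and selected with puromycin. The labels do not say that the arrays of a group are separate cultures. Their p-values and intervals therefore cover the spread among these 4 samples alone, and this spread may be technical. The hairpin sequences were not analysed here, and neither was the level of YTHDF3, so the knockdown itself has no check in the values below.

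m6A is written on messenger RNA in the nucleus by a large complex. METTL3 transfers the methyl group from S-adenosylmethionine, METTL14 forms a heterodimer with it and helps to hold the RNA, and WTAP anchors the pair to the regulatory subunits. METTL16 works apart from this complex, on U6 small nuclear RNA and on hairpins in the MAT2A transcript, which encodes the enzyme that makes S-adenosylmethionine. FTO removes methyl groups from m6A and from the related cap-adjacent mark m6Am. YTHDC1 binds m6A in the nucleus and takes part in splicing and export, while the YTHDF proteins bind it in the cytoplasm. The comparison of the 2 groups asks whether transcripts of the writers, the eraser or the nuclear reader differ when the hairpin targets a cytoplasmic reader.

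None of the 10 transcripts passed the test. With limma and Benjamini-Hochberg adjustment over all genes, 0 of 10 were called at an adjusted p under 0.05, against 0.753% of all genes (96 of 12755; 0.666% lower and 0.0862% higher). Before adjustment, 0 of 10 had a p under 0.05, against 14.7% of all genes. The fitted log2 differences, shYTHDF3 minus shControl, ran from -0.20 for FTO to 0.33 for WTAP, with 4 positive and 6 negative, where 50.8% of all genes were positive. Their median was -0.07, beside 0.004 over all genes. The median size of the difference, regardless of sign, was 0.093 for the 10 genes and 0.148 over all genes. The groups did not overlap for 4 of the 10 (2 higher, 2 lower in the knockdown arrays), where this held for 45.5% of all genes (22.6% higher, 22.8% lower).

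Each difference was bounded by its interval. The 95% interval lay inside 1.5-fold in either direction for 9 of the 10 genes, where 66.4% of all genes had such an interval. It lay inside 2-fold for all 10, where 96.2% of all genes did. The exception at 1.5-fold was WTAP, whose upper bound was a ratio of 1.63. Over the 10 genes the lowest lower bound was a knockdown to control ratio of 0.695, for METTL16. When the level of each interval was raised to 99.5%, so that 10 intervals together hold at 95% or more, all 10 still lay inside 2-fold and 0 inside 1.5-fold, against 84.0% and 13.5% of all genes. The outermost of these wider bounds were ratios of 0.584, for METTL16, and 1.95, for WTAP. To be called over all genes at the spread fitted for them, the 10 would have had to differ by 1.71-fold for FTO to 2.25-fold for VIRMA. Every level lay between 3.31 and 6.26 log2 units above the lower limit set for testing (2.54). Array folds can understate a change in RNA amount, and the intervals do not cover that. How far they do so at these levels was not tested.

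**Figure D1:**
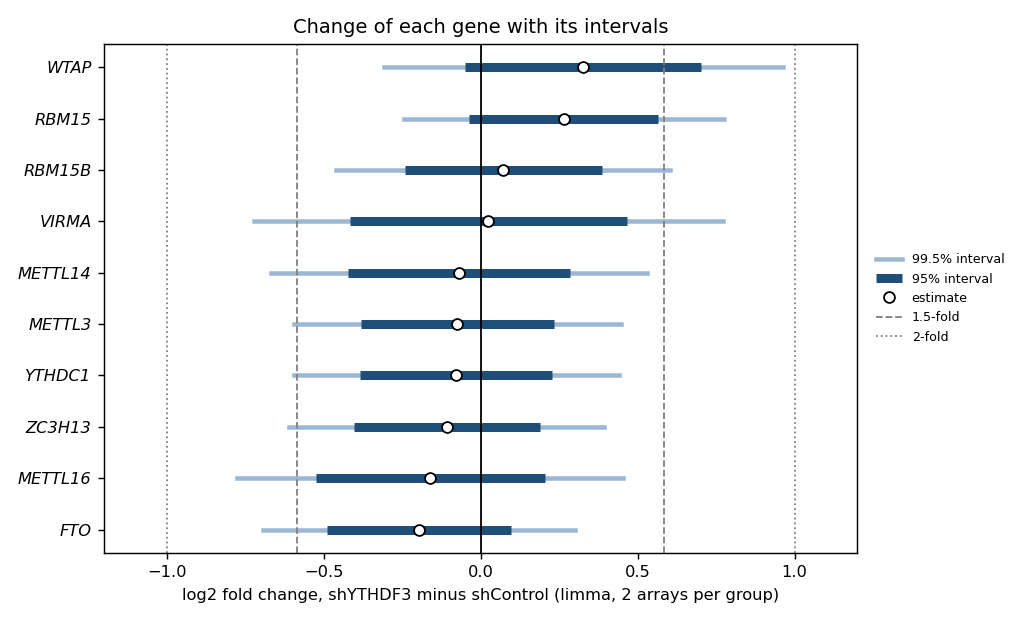
Log2 fold change of each of the 10 genes, shYTHDF3 minus shControl, from limma with 2 arrays per group; circles are estimates, dark bars 95% intervals, pale bars 99.5% intervals, and dashed and dotted lines mark 1.5-fold and 2-fold. Every interval spans 0, and of the 95% intervals only that of WTAP reaches past 1.5-fold.

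The estimates for the catalytic pair were close to 0. METTL3 stood at 6.51 and 6.66 in the control arrays and at 6.50 and 6.52 in the knockdown arrays (all levels are log2 expression). Both knockdown values lay near the lower control value and the groups overlapped. The log2 difference was -0.07 (SE 0.13, 95% interval -0.38 to 0.23), which bounds the knockdown to control ratio between 0.767 and 1.18 (adjusted p = 0.85, limma). METTL14 stood at 8.58 and 8.31 in the control arrays and at 8.47 and 8.28 in the knockdown arrays. Its arrays interleaved, with the first of each group above the second. The difference was -0.07 (SE 0.15, interval -0.42 to 0.29), a ratio between 0.745 and 1.22 (adjusted p = 0.88, limma). METTL3 and METTL14 thus had estimates of the same size, each smaller than the gap between the control arrays (0.16 and 0.27). With 1 array left out the difference ran from -0.15 to 0.004 for METTL3 and from -0.20 to 0.07 for METTL14.

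WTAP, which recruits the catalytic pair to nuclear speckles, had the largest difference of the 10. Its control arrays read 7.87 and 7.48 and its knockdown arrays 8.00 and 8.00, so both knockdown arrays lay above both controls. The means were 7.67 ± 0.27 and 8.00 ± 0.0063 (SD, n = 2 each). The difference was 0.33 (SE 0.16, interval -0.05 to 0.70), or a ratio between 0.967 and 1.63, and limma gave an adjusted p of 0.40. Of all genes, 17.8% had a difference of at least this size. The gap between the control arrays, 0.39, was larger than the difference between the groups, and 11.4% of all genes had so wide a control gap. The knockdown arrays were 0.0089 apart, closer than in 96.6% of all genes. The estimate followed the control arrays: leaving out shControl replicate 1 gave 0.52, and leaving out shControl replicate 2 gave 0.13.

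RBM15 and RBM15B are related RNA-binding proteins that bring the complex to its target RNAs. RBM15 read 7.19 and 7.18 in the control arrays and 7.39 and 7.51 in the knockdown arrays. Both knockdown arrays lay above both controls, by 0.20 to 0.33 over the 4 pairs of arrays. Here the gap between groups exceeded the gap within either group, which was 0.017 for the controls and 0.12 for the knockdown. Limma gave a difference of 0.26 (SE 0.13, interval -0.04 to 0.57), a ratio between 0.975 and 1.48, and an adjusted p of 0.39. RBM15B read 5.91 and 5.72 in the control arrays and 5.87 and 5.90 in the knockdown arrays, which lie between the control values. Its difference was 0.07 (interval -0.24 to 0.39) (adjusted p = 0.86, limma). Whether the paralogs differ in their response was not tested.

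VIRMA, the large scaffold that steers methylation towards the stop codon and the untranslated region after it, had the widest interval of the 10. The control arrays read 7.79 and 7.30 and the knockdown arrays 7.68 and 7.46, with both knockdown values inside the control range. The control gap of 0.49 was matched or passed by 5.56% of all genes. The difference was 0.02 (SE 0.19, interval -0.42 to 0.47), a ratio between 0.749 and 1.38, and limma's adjusted p was 0.97. Its sign depended on single arrays, since leaving out shControl replicate 1 gave 0.27 and leaving out shControl replicate 2 gave -0.22. ZC3H13, which helps to keep the complex in the nucleus, read 8.33 and 8.24 in the control arrays and 8.17 and 8.19 in the knockdown arrays. Both knockdown arrays lay below both controls, though by no more than 0.16 in any pair. The difference was -0.11 (SE 0.13, interval -0.41 to 0.19) (adjusted p = 0.75, limma).

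METTL16 read 6.86 and 6.95 in the control arrays and 6.92 and 6.57 in the knockdown arrays. Only shYTHDF3 replicate 2 was low, and the other knockdown array lay between the controls. The difference was -0.16 (SE 0.16, interval -0.52 to 0.20), a ratio between 0.695 and 1.15 (adjusted p = 0.69, limma). Without shYTHDF3 replicate 2 the difference was 0.012, and without shYTHDF3 replicate 1 it was -0.33. The MAT2A transcript, on which METTL16 acts, was not analysed here.

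FTO had the lowest estimate of the 10 and closely agreeing arrays. It read 7.68 and 7.73 in the control arrays and 7.52 and 7.51 in the knockdown arrays, so both knockdown arrays were below both controls, by 0.16 to 0.23 over the 4 pairs. The means were 7.71 ± 0.04 and 7.51 ± 0.0095 (SD, n = 2 each). The difference was -0.20 (SE 0.13, interval -0.49 to 0.10), a ratio between 0.712 and 1.07 (adjusted p = 0.52, limma). Differences of at least this size occurred in 38.2% of all genes. Limma widens the spread of so quiet a gene towards that of other genes. From its own 2 residual degrees of freedom alone the interval was -0.31 to -0.08, with an adjusted p of 0.45 over all genes from the same linear model without limma's moderation. The interval of RBM15 became 0.004 to 0.53 in that fit, with an adjusted p of 0.48, and those of the other 8 genes spanned 0. The widest there were those of VIRMA (-1.14 to 1.19) and WTAP (-0.50 to 1.16), which both reach past 2-fold. For these 2 genes the 2-fold bound thus rests on the spread limma shares across genes. With 1 array left out the estimate for FTO stayed between -0.22 and -0.17.

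YTHDC1, the nuclear reader, read 8.91 and 8.77 in the control arrays and 8.78 and 8.74 in the knockdown arrays. The groups overlapped by a narrow margin, with shYTHDF3 replicate 1 just above shControl replicate 2. The difference was -0.08 (SE 0.13, interval -0.38 to 0.23), a ratio between 0.766 and 1.17 (adjusted p = 0.84, limma).

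**Figure D2:**
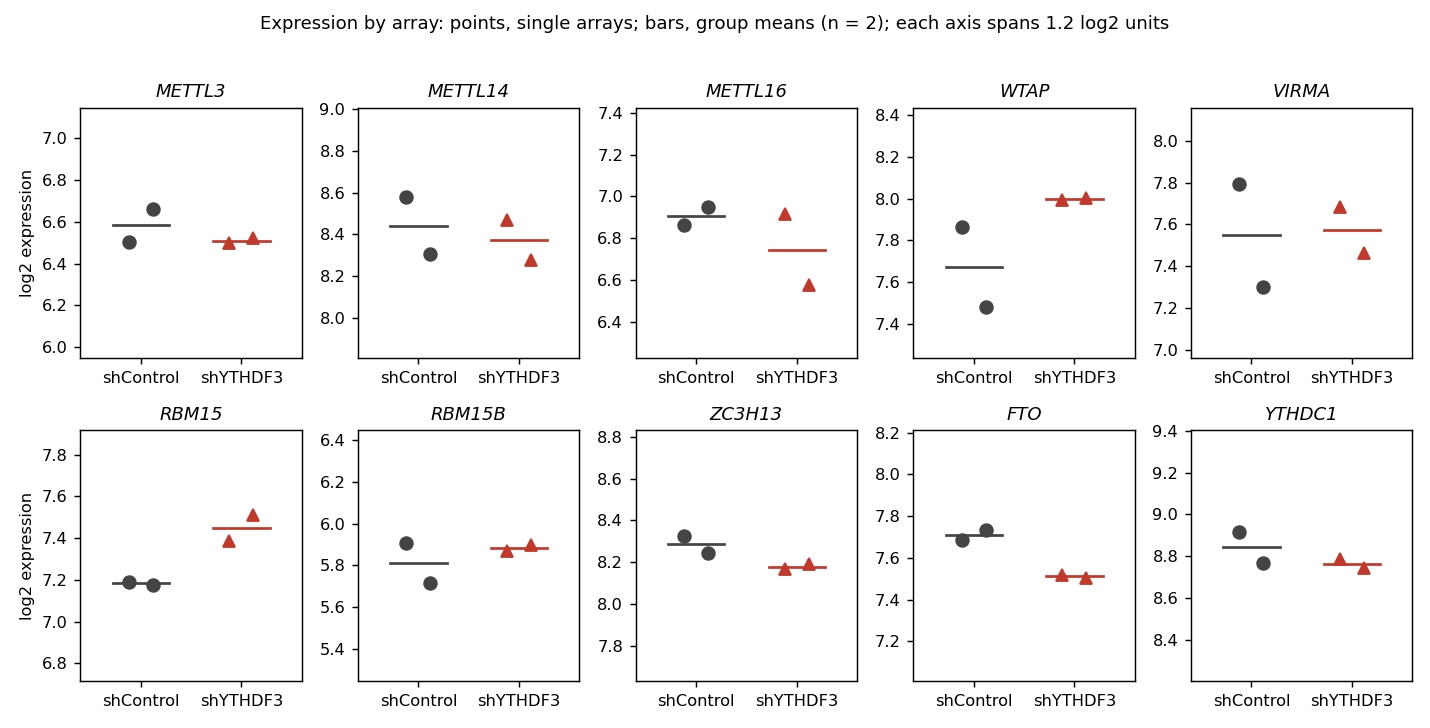
Log2 expression of the 10 genes on each array; points are single arrays (grey circles shControl, red triangles shYTHDF3), bars are group means of 2 arrays, and each vertical axis spans the same number of log2 units. The groups stand apart for WTAP and RBM15 (knockdown higher) and for FTO and ZC3H13 (knockdown lower), and overlap for the other 6 genes.

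The gap between the control arrays differed from gene to gene. It ranged from 0.017 for RBM15 to 0.49 for VIRMA, with a median of 0.152 against 0.150 for all genes. The knockdown gap had a median of 0.037 against 0.149 for all genes, and was widest for METTL16 (0.34). In 7 of the 10 genes shControl replicate 1 was above shControl replicate 2, as it was in 50.6% of all genes. The genes with the 3 widest control gaps, VIRMA, WTAP and METTL14, were all among these 7. Leaving out an array therefore moved these estimates most through the controls. WTAP, RBM15, ZC3H13, FTO and YTHDC1 kept their sign in each of the 4 fits with 1 array left out, while METTL3, METTL14, METTL16, VIRMA and RBM15B changed sign in at least 1 of them. A kept sign did not mean a steady size: YTHDC1 ran from -0.0053 (without shControl replicate 1) to -0.15 (without shControl replicate 2), and ZC3H13 from -0.07 to -0.15 with the same arrays left out.

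**Figure D3:**
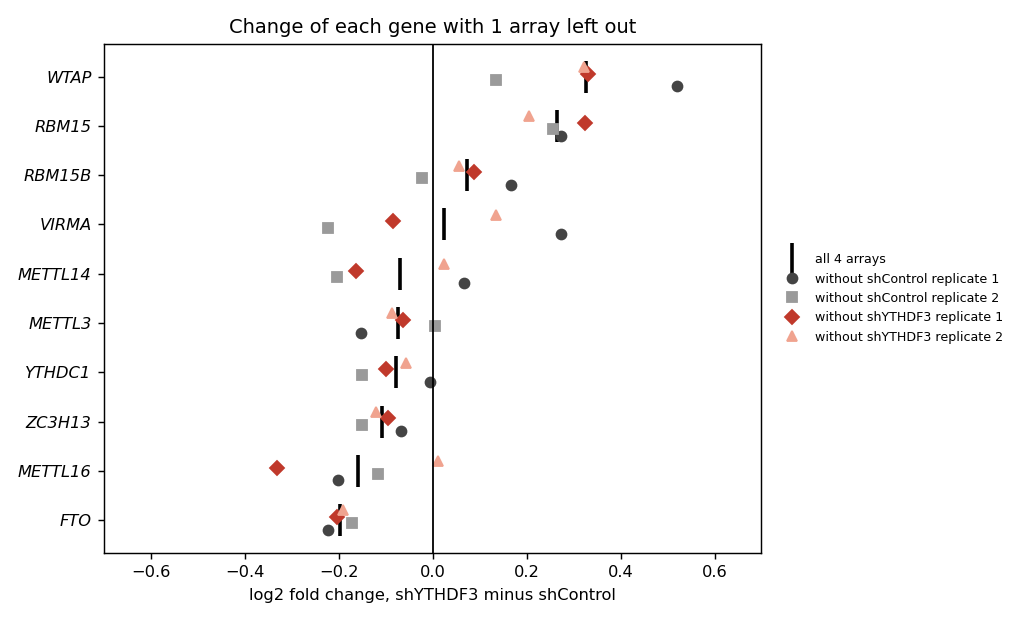
Log2 fold change of each of the 10 genes with all 4 arrays (black bars) and with 1 array left out (symbols). The estimate for WTAP moves between 0.13 and 0.52 with the control array left out and that for VIRMA between -0.22 and 0.27, while that for FTO stays between -0.22 and -0.17.

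Whole patterns over 4 arrays are short, so likeness between genes is a description only. After subtraction of each gene's own mean, the tested genes closest to METTL3 were MNT, MSL3 and PCSK5, with root mean square differences over the 4 arrays of 0.0075, 0.0093 and 0.013 log2 units. Those closest to FTO were FRMD4A, TMEM186 and KRTAP5-AS1, at 0.0067, 0.012 and 0.013.

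Other genes of m6A biology and of methyl group supply were read beside the 10. They comprised 57 genes in 7 lists, of which 29 had a named probe set and 27 were tested. Limma called 0 of these 27, and 1 higher and 3 lower genes had an unadjusted p under 0.05, where 6.24% and 8.48% of all genes did. Their median difference was -0.02, and 27 of 27 intervals lay inside 2-fold and 20 of 27 inside 1.5-fold, where 96.2% and 66.4% of all genes did. The demethylase ALKBH5, the other 7 AlkB family dioxygenases, the writer cofactor CBLL1 and the readers YTHDF1, YTHDF2, YTHDC2 and ELAVL1 were not analysed here.

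Among other writer genes 4 of 6 were tested, with a median of -0.16 and 1 of 4 intervals inside 1.5-fold. PCIF1, which places m6Am next to the cap, read 6.75 and 6.98 in the control arrays and 6.44 and 6.43 in the knockdown arrays. The knockdown arrays were lower in all 4 pairs, with a log2 difference of -0.43 (interval -0.75 to -0.11) (adjusted p = 0.22, limma). METTL4, a methyltransferase of U2 small nuclear RNA, read 7.17 and 6.89 in the control arrays and 7.45 and 7.35 in the knockdown arrays. Its difference was 0.37 (interval 0.03 to 0.71) (adjusted p = 0.31, limma). Neither passed, and the intervals reach past 1.5-fold in the direction of each estimate.

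Among other readers 7 of 15 were tested, 0 were called and 0 had an unadjusted p under 0.05 with limma. Their median was 0.03, and 6 of the 7 intervals lay inside 1.5-fold. The gene at the median, IGF2BP1, had a weak signal, with a mean of 3.20 beside array medians of 3.20 to 3.22. The largest differences were -0.29 (interval -0.73 to 0.15) for HNRNPC, a nuclear protein whose binding sites m6A can expose, and 0.10 (interval -0.22 to 0.42) for PRRC2A. The control arrays of HNRNPC lay apart, at 8.85 and 8.33, with both knockdown arrays, at 8.22 and 8.38, near the lower of them. With 1 array left out the difference of HNRNPC ran from -0.03 (without shControl replicate 1) to -0.55 (without shControl replicate 2), and that of PRRC2A from 0.02 to 0.18.

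Of the methyl donor genes 6 of 10 were tested, with a median of -0.02, 0 called and 4 of 6 intervals inside 1.5-fold. Among them MTAP had a weak signal, with a mean of 3.21, near the array medians. MTRR, which reactivates methionine synthase, read 5.38 and 5.28 in the control arrays and 4.75 and 5.01 in the knockdown arrays. The difference was -0.45 (interval -0.79 to -0.11) (adjusted p = 0.22, limma). AHCY, which clears the S-adenosylhomocysteine left after methyl transfer, read 6.67 and 6.80 in the control arrays and 7.01 and 7.03 in the knockdown arrays. Its difference was 0.28 (interval -0.02 to 0.59) (adjusted p = 0.37, limma).

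Among other METTL family genes 9 of 12 were tested and 0 called, with a median of -0.01. METTL6, a transfer RNA methyltransferase, had a difference of -0.30 (interval -0.60 to -0.001) and METTL18, a histidine methyltransferase of a ribosomal protein, 0.21 (interval -0.10 to 0.52). Limma's adjusted p was 0.34 and 0.52. Of the nuclear partners 1 of 6 was tested. This was SRSF3, a splicing factor that works with YTHDC1, whose difference was 0.04 (interval -0.26 to 0.33); after quantile normalization or cyclic loess its sign turned, at -0.0033 and -0.0085.

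**Figure D4:**
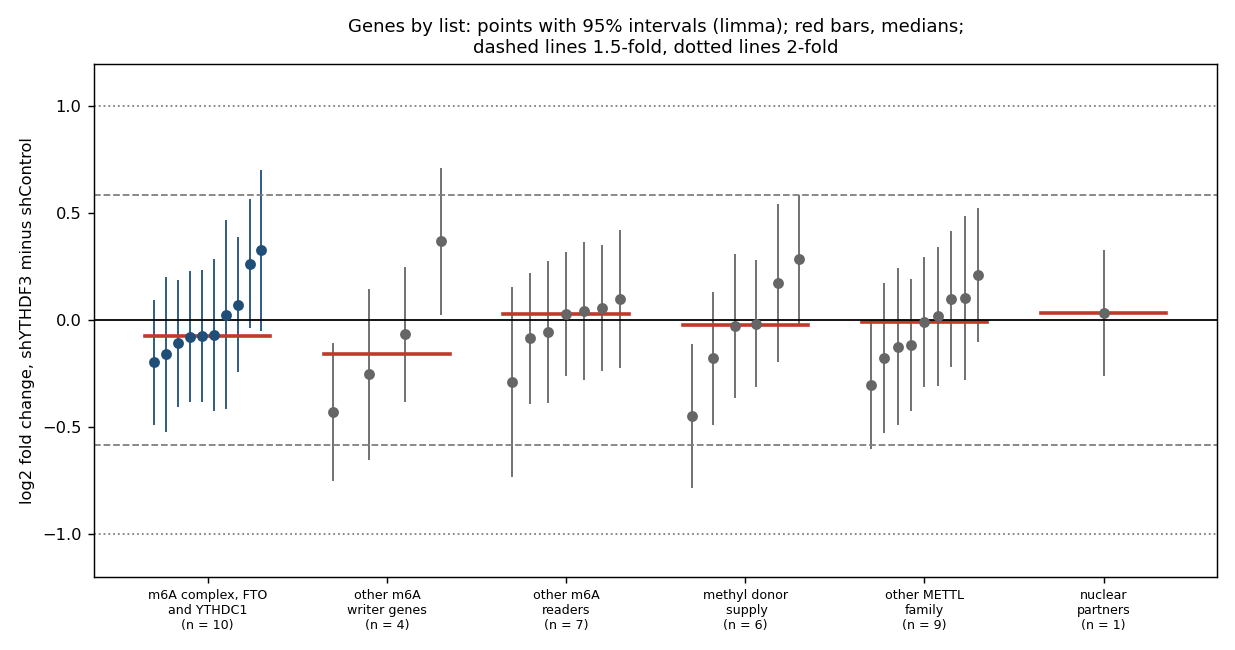
Log2 fold change (shYTHDF3 minus shControl) of the tested genes of each list with 95% intervals from limma; red bars are list medians, and dashed and dotted lines mark 1.5-fold and 2-fold. In this fit the intervals of PCIF1, METTL4, MTRR and METTL6 leave 0 out, and no gene shown was called after adjustment over all genes. Without moderation those of PCIF1, METTL4 and MTRR span 0.

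Within each group the arrays correlated at 0.992 over the tested genes, and between groups at 0.986 to 0.987. For scale, the largest called fall was that of HMOX1, haem oxygenase 1, at -3.30 (adjusted p 0.00040 from limma), and the largest called rise that of ANKRD36BP1, at 1.33. All 9 measured markers of a mesenchymal-like basal line, such as VIM, MSN and AXL, lay above the array median. Of these 9, 1 was called, FN1 (-1.50, adjusted p 0.012 from limma), against 0.753% of all genes. At an unadjusted p under 0.05, 3 were lower and 0 higher, where 8.48% and 6.24% of all genes were. The 3 were FN1, ZEB1 at -0.47 and FOSL1 at -0.39. The luminal and epithelial markers were mixed in level. EPCAM (6.70), KRT19 (6.57), SPDEF (5.13), FOXA1 (5.04), GATA3 (4.62) and TFF1 (3.35) lay above the array medians of 3.20 to 3.22 as means of the 4 arrays, and ESR1 (2.87), PGR (2.67) and ERBB3 (2.99) lay below them. The measured leukocyte, endothelial and stromal markers (CD14, LYZ, DCN, LUM, PECAM1 and VWF) lay between 2.06 and 2.91. Of 3 measured brain markers, MBP (5.80) and SYT1 (5.42) lay above the medians and GFAP (3.19) below. None of the markers of luminal cells, leukocytes, endothelial and stromal cells or brain cells was called by limma. At an unadjusted p under 0.05, 2 of them were lower and 0 higher, beside the same 8.48% and 6.24% of all genes. The 2 were VWF at -0.34 and SYT1 at -0.66. The part of any marker in the values of the 10 genes was not tested.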

How the data were processed

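The authors deposited log2 values, with a row for each probe set and a column for each array. RMA is the tool in the submitters' processing notes, and it subtracts background, equalises the arrays and combines the probes of a set. A shift common to all RNA is thereby removed. The version of RMA and the genome build were not used here, so no coordinates are printed. Detection calls were not used either, and precision is limited by having 4 arrays.

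The platform annotation gave 1 symbol to 16098 of 53617 probe sets, several to 0 and none to 37519. RefSeq matched all 16098 Entrez identifiers and changed 0 symbols. Each gene was read from its probe set of highest mean, and tested where this was at or above the 30th percentile over all probe sets. The test was limma's (version 3.58.1, R 4.3.3; lmFit, then eBayes, 2-sided, without covariates), adjusted by Benjamini-Hochberg over 12755 genes, with 2 residual degrees of freedom and 5.30 prior ones. Permuting 2 arrays against 2 gives no p under 0.333, so p-values and intervals rest on the spread limma shares across genes. The code was tested on simulated data.

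All 10 genes are named, by symbol. From the 7 further m6A and methyl supply lists, genes were named when called, when the unadjusted p was under 0.05, or when among the 2 largest differences of a list. Genes and lists were chosen with earlier results of these data known. HMOX1 and ANKRD36BP1 are the largest called differences in each direction. Marker genes follow no such rule: VIM, MSN and AXL are examples chosen after their values were seen, and of the other markers all measured ones are named, as are the basal ones with an unadjusted p under 0.05. The labels tie replicate numbers to nothing, and over 12755 genes the replicate 2 minus 1 differences of both groups correlated at 0.043, so no block was used. Alternatives changed the normalization, the variance model, the choice of probe set, the filter, the threshold or the block, or left out an array.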

Additional observations from a re-analysis of the deposited data

How the results depend on the processing

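No alternative called any of the 10 genes or any gene of the 7 further lists. Of 160 values of the 10 genes under 16 alternatives, 153 kept their sign, and the 7 that turned all came from leaving out 1 array: METTL3 (range -0.15 to 0.0043; positive without shControl replicate 2), METTL14 (-0.20 to 0.065; positive without shControl replicate 1 and, at 0.024, without shYTHDF3 replicate 2), METTL16 (-0.33 to 0.012; positive without shYTHDF3 replicate 2), VIRMA (-0.22 to 0.27; negative without shControl replicate 2 and, at -0.085, without shYTHDF3 replicate 1) and RBM15B (-0.023 to 0.17; negative without shControl replicate 2). SRSF3 turned to -0.0033 with quantile normalization and -0.0085 with cyclic loess. At an unadjusted p under 0.05 the count of the 10 was 2 with an intensity trend (WTAP and RBM15), 2 without moderation (RBM15 and FTO) and 0 to 1 with 1 array left out (WTAP without shControl replicate 1). Intervals inside 1.5-fold numbered 6 of 10 without moderation, 7 with every probe set as its own feature, 8 to 9 in the other fits on 4 arrays and 4 to 6 with 1 array left out. Inside 2-fold they numbered 8 without moderation and 10 in every other fit. Over all genes, against 96 called (85 lower, 11 higher), limma called 250 (196 and 54) at an adjusted p under 0.10, 167 (141 and 26) with the filter at the 50th percentile, 19 (18 and 1) with every probe set as its own feature, 375 (272 and 103) with an intensity trend, 11 (11 and 0) with the replicate block and 0 (0 and 0) without moderation. It called 5 higher without a filter and 20 higher with the probe set of the largest interquartile range. With 1 array left out it called 0 to 36, of which 0 to 36 lower and 0 to 2 higher. With 1 array left out the lone array of a group is assumed to vary like the other pair. The cause of these shifts was not tested. With the replicate block, as in the main fit, 0 of the 10 genes were called. The labels do not say whether the replicate numbers pair the arrays.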
